A study of Arabidopsis thaliana with 12 samples.

Results

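The 24 probe sets described here gave a lower signal in every 14-day array than in any 12-day array of a study of Arabidopsis thaliana seedlings. They were chosen on these values. The highest of the 4 signals at 14 d plus 50, multiplied by 1.5, had to be no greater than the lowest of the 8 signals at 12 d plus 50. The mean signal over the 12 arrays had to be at least 120. Of 22746 probe sets that are not array controls, 13723 had that mean and 24 met the rule, which is 24 of 13723. The same rule turned round, for a higher signal in every 14-day array, was met by 110 probe sets. No probe set that could be identified as a gene of the plastid genome, of 69 such probe sets, met the rule, so none had to be left out. No further probe set met the factor with a mean under 120, and the lowest mean among the 24 was 151, for KINESIN-12B.

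The seedlings were grown from cold-treated seeds on agar with 1% sucrose, and total RNA of each sample was hybridised to 1 ATH1 GeneChip, an array of short oligonucleotide probe sets for most Arabidopsis genes. At 14 d there were the mutant ein2 (ein2-1) and the wild type Col-0. At 12 d there were the mutants aba2 (also named gin1-3) and etr1 (etr1-1) and the wild types Col-7 and Col-0. Each of these 6 groups had 2 arrays. Col-0 and Col-7 are lines of the Columbia accession, ETR1 is an ethylene receptor, EIN2 carries the ethylene signal on from the receptors, and ABA2 makes a precursor of abscisic acid (ABA). The title names crosstalk of ABA and ethylene signalling as the subject, and the design text names wild type as the control. It speaks of independent sets of arrays but does not say which arrays form a set, nor that replicates came from separate cultures, so the p-values below measure only the spread between these arrays.

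Green leaves store carbon as starch in the chloroplast by day and break it down at night. Defensins are small secreted antimicrobial peptides, and the ethylene and jasmonate hormone pathways are known to act together on PDF1.2 in leaves. Dividing plant cells build the new cell wall on the phragmoplast, an array of microtubules on which kinesins act.

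Of the 24 members, 7 were paired with a gene. They are DPE1 and AT1G70820 (carbohydrate metabolism), MAP1C (protein processing), AT5G62720 and AT1G33265 (membrane proteins), PDF1.2 (defence) and KINESIN-12B (cell division). The other 17 were paired with no gene in the naming table used here and are given by probe set ID, without a role. No sequences or genome positions were used for any member.

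**Figure D1:**
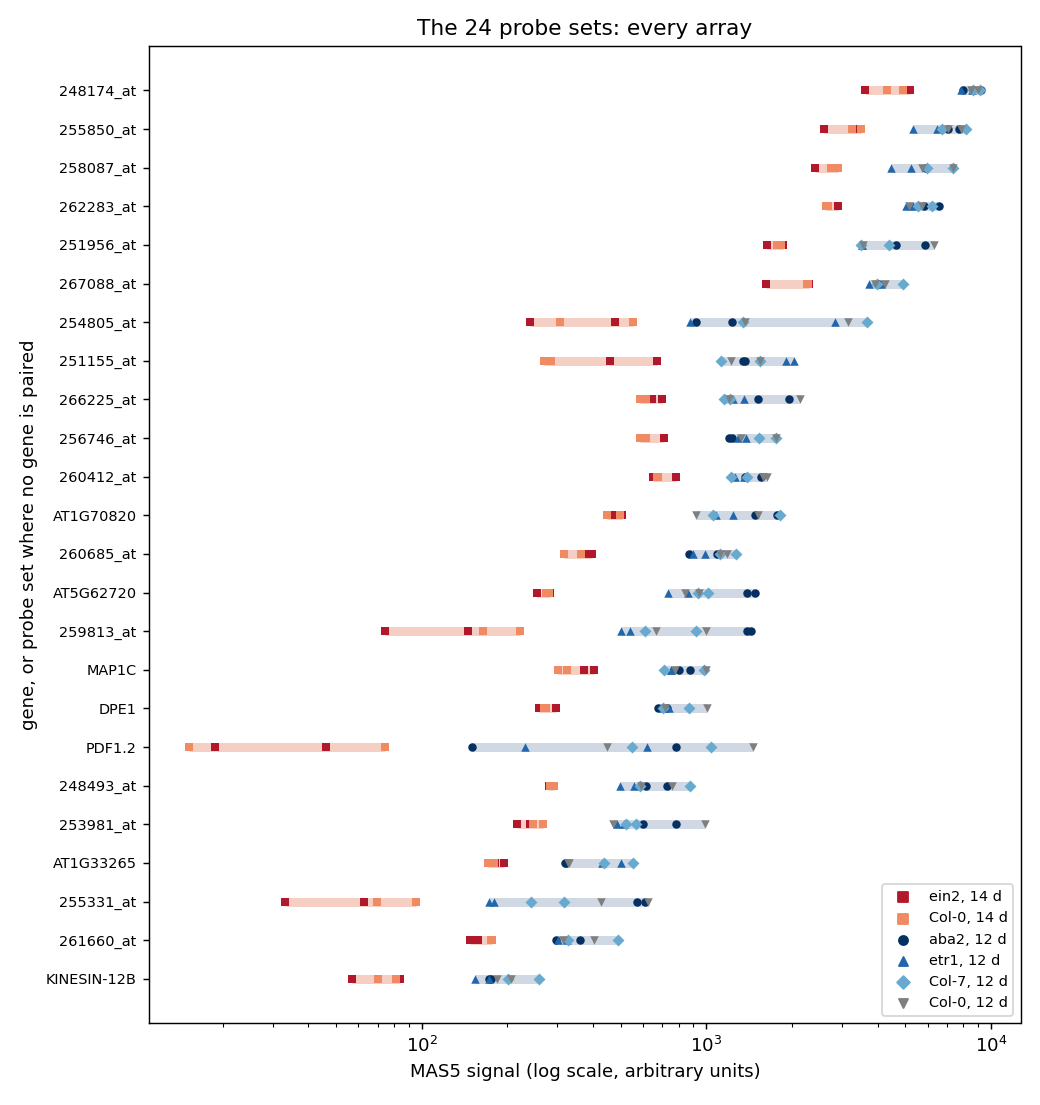
MAS5 signal (log axis, arbitrary units) of each of the 24 members in all 12 arrays; each mark is 1 array, coloured by genotype and age, and the bars span the 4 arrays of 14 d (ein2 and Col-0) and the 8 of 12 d. No 14-day point reaches the 12-day points of its probe set, which is the rule that chose the members.

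The members ranged from dim to bright. Their mean signals ran from 38.6 to 4514 at 14 d, with a median of 379, and from 190.5 to 8637 at 12 d, with a median of 1215. The 12-day mean was 1.91 to 17.1 times the 14-day mean, with a median of 2.43 and the highest over the dim signals of PDF1.2. The ratio of the lowest 12-day to the highest 14-day signal, each plus 50, had a median of 1.61 and reached 2.35. These differences are what chose the members and are given as a description without a test. In bulk RNA, fewer cells of a type and less RNA per cell cannot be told apart.

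In most members the 12-day arrays lay further apart than the 14-day arrays. The highest array was 1.04 to 4.91 times the lowest at 14 d, with a median of 1.22 over the members. At 12 d, with more arrays and genotypes, it was 1.17 to 9.75 times the lowest, with a median of 1.70. The ratio was higher at 14 d than at 12 d in 4 of 24, which were 251155_at, 259813_at, 248174_at and 267088_at. The within-age SD of log2(signal + 50) had a median of 0.114 at 14 d and 0.244 at 12 d among the members, beside 0.146 and 0.238 over all probe sets tested. The array nearest the gap was not always the same: an etr1 array was the lowest at 12 d in 11 members (replicate 1 in 8, replicate 2 in 3), an aba2 array in 6, a Col-7 array in 5 and a Col-0 array in 2. At 14 d an ein2 array was the highest in 16 members and a Col-0 array in 8. No such counts were made over all probe sets tested, so nothing is read from these.

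DPE1 (probe set 247216_at) is the plastid disproportionating enzyme, a glucanotransferase that acts on the short maltooligosaccharides left by starch breakdown. Its signals at 14 d were 298 and 258 in ein2 and 269 and 274 in Col-0. At 12 d they were 676 and 727 in aba2, 738 and 706 in etr1, 868 and 704 in Col-7, and 716 and 1008 in Col-0. The 4 arrays of 14 d lay close together, the 12-day mean was 2.80 times the 14-day mean, and the 4 genotypes of 12 d overlapped.

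AT1G70820 (262309_at) encodes a protein of the phosphoglucomutase family, enzymes that move phosphate between positions of a sugar. The 14-day arrays gave 476 and 508 in ein2 and 447 and 498 in Col-0. The 12-day arrays gave 1780.0 and 1479 in aba2, 1239 and 1079 in etr1, 1813 and 1058 in Col-7, and 1520.4 and 924 in Col-0. In both wild types of 12 d the replicates were further apart than any pair of 14-day arrays.

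Other genes of starch metabolism were read from lists put together after the members were known. Of 12 starch breakdown loci 2 were paired, DPE1 and PWD, the phosphoglucan water dikinase that phosphorylates starch at the granule surface. In Col-0 at 14 d against Col-0 at 12 d PWD was lower (log2 difference -0.75 ± 0.185 SE, limma adjusted p = 0.0398). Its ages overlapped, at 436 to 618 over the 4 arrays at 14 d and 569 to 1022 over the 8 at 12 d, and it lost the call without either Col-0 array of 14 d (adjusted p = 0.159 and 0.244) and without Col-0 replicate 1 of 12 d (0.0923). The call was also lost without the filter on low signal (0.0550) and in a fit of the Col-0 arrays alone (0.189). Of 11 loci of starch synthesis and the phosphoglucomutases 2 were paired, AT1G70820 and the branching enzyme SBE2.2, which did not pass (0.39 ± 0.233, limma adjusted p = 0.386).

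MAP1C (259363_at) is a methionine aminopeptidase of the organelles, which takes the first methionine off new proteins. Its signals at 14 d were 372 and 403 in ein2 and 324 and 301 in Col-0. At 12 d they were 877 and 805 in aba2, 749.6 and 750.4 in etr1, 979 and 711 in Col-7, and 776 and 1002 in Col-0. At 12 d both etr1 arrays lay below both aba2 and both Col-0 arrays and between those of Col-7, and at 14 d both ein2 arrays lay above both Col-0 arrays.

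Its listed relatives in the processing of the first methionine did not pass the test of age. Of 8 loci for this processing 6 were paired. The 5 besides MAP1C, which are the aminopeptidases MAP1A (0.24), MAP1B (0.00) and MAP1D (-0.23) and the peptide deformylases PDF1A (-0.28) and PDF1B (-0.22), did not pass the test in Col-0 at 14 d against 12 d, where MAP1C had a log2 difference of -1.36. Peptide deformylases take the formyl group off the first methionine in organelles and are unrelated to the defensins that share their abbreviation.

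AT5G62720 (247443_at) encodes an integral membrane protein of the HPP family and had the widest gap of the 24, at a ratio of 2.35. In ein2 it gave 283 and 255 and in Col-0 280.5 and 274 at 14 d. The 12-day signals were 1483 and 1394 in aba2, 734 and 865 in etr1, 932 and 1016 in Col-7, and 941 and 845 in Col-0. Both aba2 arrays lay above all other arrays.

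AT1G33265 (256512_at) encodes a membrane protein of the family that includes the plastid fatty acid exporter FAX1. Its signals at 14 d were 180.5 and 195 in ein2 and 171 and 179.9 in Col-0. At 12 d they were 319 and 320.4 in aba2, 503 and 432 in etr1, 439 and 552 in Col-7, and 329 and 326 in Col-0. The 12-day arrays formed a lower set of aba2 and Col-0 and a higher set of etr1 and Col-7. All 9 loci listed for both families were paired, and 9 of their 10 probe sets were tested. The 7 besides the members ran from -0.29 to 1.09 in Col-0 at 14 d against 12 d, and 1 passed, AT1G50740, which was higher at 14 d (1.09 ± 0.243, limma adjusted p = 0.0263). Its call was lost without Col-0 replicate 1 of 14 d (0.246), replicate 2 of 14 d (0.0625) and replicate 1 of 12 d (0.0683), and with the Col-0 arrays fitted alone (0.201).

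**Figure D2:**
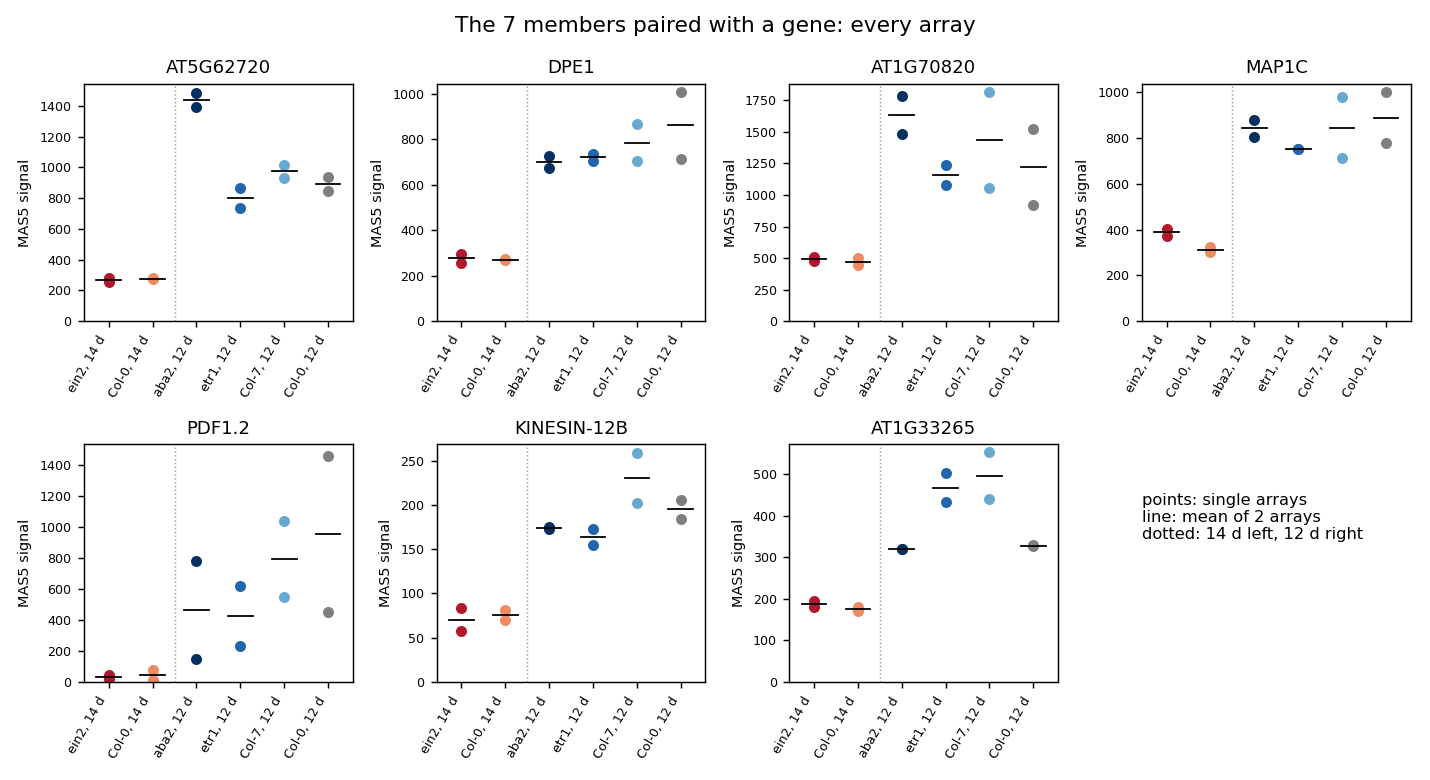
MAS5 signal (linear axis from 0, arbitrary units) by genotype and age of the 7 members that were paired with a gene; each point is 1 array, the lines are means of 2 arrays, and a dotted line parts 14 d (left) from 12 d. AT5G62720 stands highest in aba2 (1483 and 1394), and PDF1.2 has the widest spread between replicates at 12 d.

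PDF1.2 (249052_at), a plant defensin, had the lowest 14-day mean of the 24, at 38.6. The 12-day mean was 17.1 times the 14-day mean as deposited, while on the scale of signal plus 50 Col-0 at 14 d was 9.63-fold lower than Col-0 at 12 d. Seedlings of 14 d gave 46.0 and 18.8 in ein2 and 15.2 and 74.6 in Col-0. Those of 12 d gave 149.7 and 780.0 in aba2, 231 and 621 in etr1, 547 and 1041 in Col-7, and 449.7 and 1459.5 in Col-0. Replicate 2 was the higher in all 4 groups at 12 d, and all 14-day signals but 1 lay below the offset of 50, so the size of either ratio is uncertain.

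Of 10 defensin loci 8 were paired and 6 tested. PDF1.2b, a near copy of PDF1.2 whose transcripts the probes may not separate, had 10.0 to 68.9 over the 14-day arrays and 68.1 to 1223 over the 12-day arrays. It did not pass in Col-0 at 14 d against 12 d (-2.75 ± 0.830, limma adjusted p = 0.0828). It did pass with the replicate number as a block (0.0131), with the numbers crossed (0.0278) and without Col-0 replicate 1 of 12 d (0.0273). PDF1.4 (-1.12), LCR69 (-0.68), LCR68 (0.33) and PDF2.5 (0.53) did not pass in the fit of all 12 arrays without a block. In that fit 0 of the 5 relatives passed.

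KINESIN-12B (258098_at) is a kinesin of the phragmoplast. Its signals at 14 d were 57.0 and 84.0 in ein2 and 81.2 and 70.1 in Col-0. At 12 d they were 175 and 173 in aba2, 154 and 172 in etr1, 202 and 258 in Col-7, and 184 and 206 in Col-0. At 12 d the 4 wild-type arrays lay above the 4 mutant arrays. It was the only one of 11 listed phragmoplast and cytokinesis loci that was paired, so the other genes of cytokinesis were not analysed here.

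**Figure D3:**
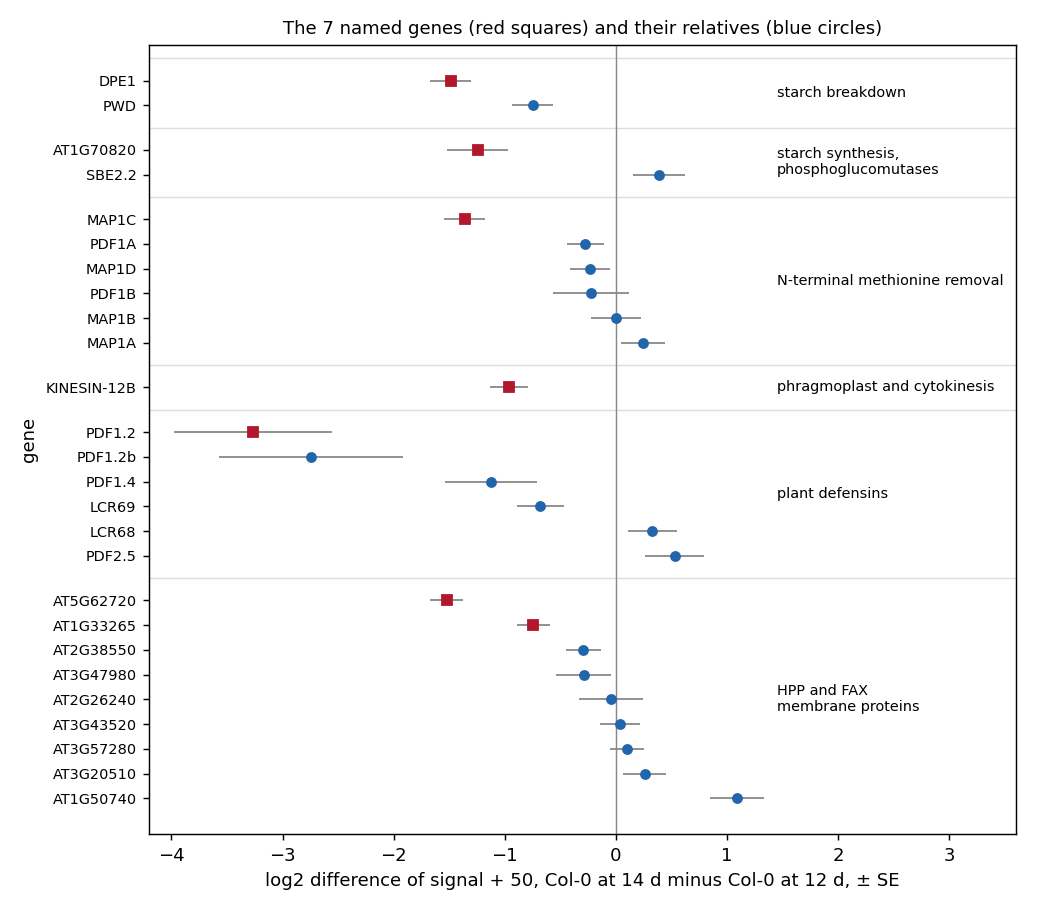
Log2 difference of Col-0 at 14 d minus Col-0 at 12 d (2 arrays each) for the named members (red squares) and for the paired genes of their families or pathways (blue circles). Standard errors are from limma, with 1 spread per probe set shared by all 6 groups. The methionine processing relatives of MAP1C lie between -0.28 and 0.24, and PWD (-0.75) and AT1G50740 (1.09) are the only relatives past an adjusted p of 0.05.

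The 17 members without a gene included the brightest of the group. 248174_at ran from 3625 to 5180.0 with a median of 4625 at 14 d, and from 7875 to 9229 with a median of 8627 at 12 d. 255850_at, 258087_at, 262283_at, 267088_at and 251956_at had 12-day medians of 3969 to 7064, and their 12-day means were 1.95 to 2.49 times the 14-day means. Bright and dim members thus met the same rule, and no bright member had a ratio of means above 2.49.

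Among the dimmer ones, 3 had the largest ratios of means (4.88 to 6.03). 259813_at had 145 and 74.6 in ein2 and 165 and 221 in Col-0 at 14 d, against 1441 and 1393 in aba2, 538 and 503 in etr1, 610.0 and 919 in Col-7, and 995 and 668 in Col-0 at 12 d. 255331_at had 33.2 and 62.6 in ein2 and 95.5 and 69.5 in Col-0 at 14 d, against 609.9 and 571 in aba2, 179 and 172 in etr1, 316 and 243 in Col-7, and 428 and 623 in Col-0 at 12 d. In both, etr1 was the lowest genotype of 12 d and the aba2 replicates were close to each other. 254805_at had 478 and 239.6 in ein2 and 306 and 552 in Col-0 at 14 d, against 1229 and 923 in aba2, 879 and 2834 in etr1, 1349 and 3669 in Col-7, and 3138 and 1365 in Col-0 at 12 d. Its replicates differed by a factor above 2 in 3 of the 4 groups at 12 d, with replicate 2 the higher in etr1 and Col-7 and replicate 1 in Col-0.

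251155_at had 674 and 459 in ein2 and 269 and 285 in Col-0 at 14 d, against 1368 and 1343 in aba2, 2039 and 1910.2 in etr1, 1126 and 1548 in Col-7, and 1217 and 1543 in Col-0 at 12 d. With AT1G33265, it was 1 of 2 members in which both arrays of each ethylene mutant lay above both Col-0 arrays of their age. For etr1 alone, 19.3% of all probe sets tested had both arrays above both Col-0 arrays. The share for both mutants together was not counted, so nothing is read from this count. The steadiest member at 14 d was 248493_at, with 280.0 to 291 at 14 d and 497 to 877 at 12 d. The remaining 6 members without a gene, 260685_at, 256746_at, 253981_at, 266225_at, 261660_at and 260412_at, had 12-day means 2.04 to 2.94 times their 14-day means.

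Near the threshold of 1.5, the members just inside were 255850_at and 248174_at (both 1.52) and AT1G33265 (1.504). Those just outside were AT2G37660 (1.48), 262235_at (1.47) and AT1G63610 (1.47). AT2G37660 had a highest 14-day signal of 2479 and a lowest 12-day signal of 3685, and AT1G63610 had 492 and 746.

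The comparison of age in 1 genotype used arrays that the rule also used. In Col-0 at 14 d against Col-0 at 12 d the members' log2 differences ran from -3.27 to -0.74, with a median of -1.27, and the median over all probe sets tested was 0.00. Of the 24, 23 passed an adjusted p of 0.05 in limma, beside 6.47% of all probe sets tested (1.87% lower and 4.6% higher), and nothing is read from that count. Age also goes with genotype here, since etr1, aba2 and Col-7 had no 14-day arrays and ein2 no 12-day arrays. The labels give no growth or extraction batch, so age and a batch of that kind cannot be told apart.

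Measures of the arrays and of marker genes are given here beside the members. The summed signal of the leaf markers RCA and SBPASE, the 2 of 7 listed that were paired, was 28336 to 30453 at 14 d and 30626 to 42180 at 12 d, without overlap. Each of these genes alone overlapped between the ages, and neither passed in Col-0 at 14 d against 12 d (RCA -0.23, limma adjusted p = 0.365, and SBPASE -0.38, 0.283). That of the root hair genes EXPA7 and EXPA18, 2 of 8 root markers paired, was 193 to 368 at 14 d and 139.8 to 233 at 12 d (EXPA18 0.76, limma adjusted p = 0.0778, while EXPA7 was under the filter), and none of 5 seed and 5 flower markers was paired. The median signal of an array was 208 to 214 at 14 d and 188 to 198 at 12 d, while the trimmed mean was 500.04 to 500.05 in all. The 3' to 5' ratios of the control genes overlapped between the ages. They were 1.28 to 1.64 at 14 d and 1.13 to 2.16 at 12 d for GAPDH. For Ubq they were 2.07 to 2.58 and 2.18 to 3.39, and for Actin they were far higher, at 16.6 to 21.0 and 12.7 to 29.8. Signal of 25S ribosomal RNA was 3537 in aba2 replicate 2 and 4442 in Col-0 replicate 2 of 12 d, and at most 512 in the other 10 arrays. The same aba2 and Col-0 arrays had the highest Actin ratios, at 29.8 and 25.4. Replicates lay closest in Col-0 at 14 d and furthest apart in Col-0 at 12 d (SD over probe sets of their log2 difference, 0.227 and 0.605). The part of these measures in the age difference was not tested.

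Genes of other seedling pathways were read from fixed lists. Of 265 loci in 17 lists 32 were paired and 28 tested, and 1 of these was a member, PDF1.2. In Col-0 at 14 d against 12 d, 6 of the other 27 were lower and 3 higher by limma. Over all probe sets tested, 1.87% were lower and 4.6% higher. The median log2 difference was -0.19 over the 28, beside 0.00 over all probe sets tested. These lists were chosen with earlier results of these data known, so nothing is read from the counts. Lower were the clock gene GI (-0.95, adjusted p = 0.00727), the light-harvesting genes LHCB4.1 (-0.51, 0.0334) and LHCB4.3 (-1.09, 0.0475), the anthocyanin synthesis gene DFR (-1.51, 0.0211) and the cold and ABA genes COR15A (-2.50, 0.0109) and COR15B (-1.19, 0.0366). Higher were OPCL1 of jasmonate synthesis (1.62, 0.00175), the stress zinc finger STZ (2.98, 0.0430) and the auxin-conjugating WES1 (1.00, 0.0260). Without Col-0 replicate 1 of 14 d all of these 9 except OPCL1 lost their calls (adjusted p = 0.100 for GI to 0.343 for LHCB4.3). Without Col-0 replicate 2 of 14 d the calls of LHCB4.1, LHCB4.3, COR15A, COR15B, STZ and WES1 were lost (0.0542 to 0.170), without replicate 1 of 12 d those of LHCB4.1, LHCB4.3, DFR and COR15B (0.0601 to 0.109), and without replicate 2 of 12 d those of LHCB4.3 and STZ (0.0649 and 0.103). LHCB4.1 was also at -0.14 after quantile normalization (0.553) and missed the threshold without trend (0.0804), and LHCB4.3 missed it with an offset of 10 (0.0504). Without the filter LHCB4.1 (0.118), LHCB4.3 (0.0646), COR15B (0.0575) and STZ (0.0626) missed it, and all 9 missed the threshold when the Col-0 arrays were fitted alone (0.0551 to 0.234).

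LHCB4.3 came near to the members. Its signals were 358 to 765 at 14 d and 1112 to 2238 at 12 d, so the ages did not overlap, but the gap was under the factor of 1.5. LHCB4.3 is not among the members' listed relatives. Of those relatives PWD and AT1G50740 passed. Both overlapped between the ages, and AT1G50740 moved the other way.

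The rule did not compare genotypes within 1 age, but it used every array: it bounds how low a 12-day array and how high a 14-day array of a member can lie. The counts below are therefore not independent of the rule, and the shares over all probe sets beside them are of probe sets that met no such condition. The etr1 arrays were compared with Col-0 of 12 d to ask what depends on ethylene perception. Of the 24 members 1 passed in limma, 255331_at, beside 0.459% of all probe sets tested (0.255% lower). It averaged 176 in etr1 and 526 in Col-0, 2.51-fold lower on the scale of signal plus 50 (log2 difference -1.33 ± 0.216 SE, limma adjusted p = 0.0298, n = 2 each). Both etr1 arrays lay below both Col-0 arrays. Col-7, the other wild type of 12 d, averaged 280 for this probe set, and etr1 was not tested against it. The call was lost without etr1 replicate 1 or 2 (adjusted p = 0.255 and 0.247) and without Col-0 replicate 2 (0.0667), and held without Col-0 replicate 1 (0.00824). It was also lost with an offset of 10 (0.0599), without the filter (0.0567), and in a fit of the compared arrays alone (0.393).

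More of the members leaned down than up in etr1. An unadjusted p under 0.05 was found in 5 of 24, beside 9.73% of all probe sets tested. The log2 difference was below 0 in 22 of 24, with a median of -0.25, beside 47.7% below 0 and a median of 0.01 over all probe sets tested. Both etr1 arrays lay below both Col-0 arrays in 10 of 24 (16.1% of all tested) and above both in 2 of 24 (19.3%), which were 251155_at (1975 in etr1 and 1380 in Col-0; 0.51 ± 0.213, limma adjusted p = 0.470) and AT1G33265 (467 and 327; 0.45 ± 0.150, adjusted p = 0.318). Without Col-0 replicate 1 or replicate 2 it was 18 of 24 that lay below 0, and without etr1 replicate 1 or 2 it was 20 and 21. PDF1.2 averaged 426 in etr1 and 955 in Col-0 (-1.0 ± 0.713, adjusted p = 0.733), a difference within the spread of its replicates.

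The ein2 arrays were compared with Col-0 of 14 d. Of the 24 members 0 passed in limma, beside 0.372% of all probe sets tested, and 2 of 24 had an unadjusted p under 0.05, beside 5.39%. The log2 differences ran from -0.63 to 0.89, with a median of -0.04, and 14 of 24 were below 0, beside 51.1% of all tested. The highest was 251155_at, at a mean of 566 in ein2 and 277 in Col-0 (0.89 ± 0.213, adjusted p = 0.211), and it passed only when the 4 compared arrays were fitted alone (0.0311). The lowest was 259813_at, at 110.0 and 193 (-0.63 ± 0.267, adjusted p = 0.861), with -0.95 and -0.30 without ein2 replicates 1 and 2.

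Whether the ethylene mutants differed in their effect was tested directly. The ein2 effect at 14 d minus the etr1 effect at 12 d passed in 0 of 24 members in limma, beside 0.0146% of all probe sets tested, and 1 of 24 had an unadjusted p under 0.05, beside 3.55%. That member was 255331_at, with an effect of -0.45 in ein2 and -1.33 in etr1 (difference 0.88 ± 0.306, unadjusted p = 0.0156). The difference was above 0 in 21 of 24, with a median of 0.26, beside 46.9% and -0.02 over all probe sets tested. The effects share no array, but mutant and age change together between them.

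The aba2 arrays were compared with Col-7 of 12 d, and also with Col-0, because no label names the control of aba2. Of the 24 members 0 passed against Col-7, beside 0.452% of all probe sets tested in limma, and 0 against Col-0, beside 1.61%. Unadjusted p-values under 0.05 were 5 of 24 against Col-7 (12.3% of all tested) and 2 of 24 against Col-0 (12.1%). The differences from Col-7 ran from -1.03 to 0.97, with a median of -0.03, and 13 of 24 were below 0, beside 50.8% of all tested. Members thus lay on both sides of Col-7. Against Col-0 the members' median was -0.02, beside -0.02 over all probe sets tested.

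The member highest in aba2 was 255331_at, at 590.4 in aba2 and 279.7 in Col-7 (0.97 ± 0.216, limma adjusted p = 0.0888), but against Col-0 the difference was 0.17 (0.835). 259813_at averaged 1417 in aba2 and 764 in Col-7 (0.88 ± 0.267, adjusted p = 0.213), and 0.76 above Col-0 (0.258). AT5G62720 averaged 1438 in aba2, 974 in Col-7 (0.54 ± 0.149, adjusted p = 0.171) and 893 in Col-0 (0.66, adjusted p = 0.0625). AT1G33265 was at 319.7 in aba2 and 495.5 in Col-7 (-0.55 ± 0.150, adjusted p = 0.163), and its difference from Col-0 was -0.03 (0.970). PDF1.2 (465 in aba2 and 794 in Col-7) and 254805_at (1076 and 2509) had log2 differences of -0.99 ± 0.713 and -1.03 ± 0.617, no larger than the spread between replicates of aba2 or Col-7. Both aba2 arrays of 254805_at (1229 and 923) nevertheless lay below both of Col-7 (1349 and 3669), while those of PDF1.2 overlapped.

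The 12-day wild types Col-7 and Col-0 gave 0 calls among the 24 members in limma, beside 0% of all probe sets tested. Unadjusted p-values under 0.05 were 2 of 24, beside 4.79%. The differences ran from -0.79, for 255331_at (adjusted p = 0.765), to 0.52, for AT1G33265 (0.789). The comparisons of etr1, aba2 and Col-7 with Col-0 share the same 2 Col-0 arrays, whose replicates were the furthest apart, so their values are given side by side and not set against each other.

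**Figure D4:**
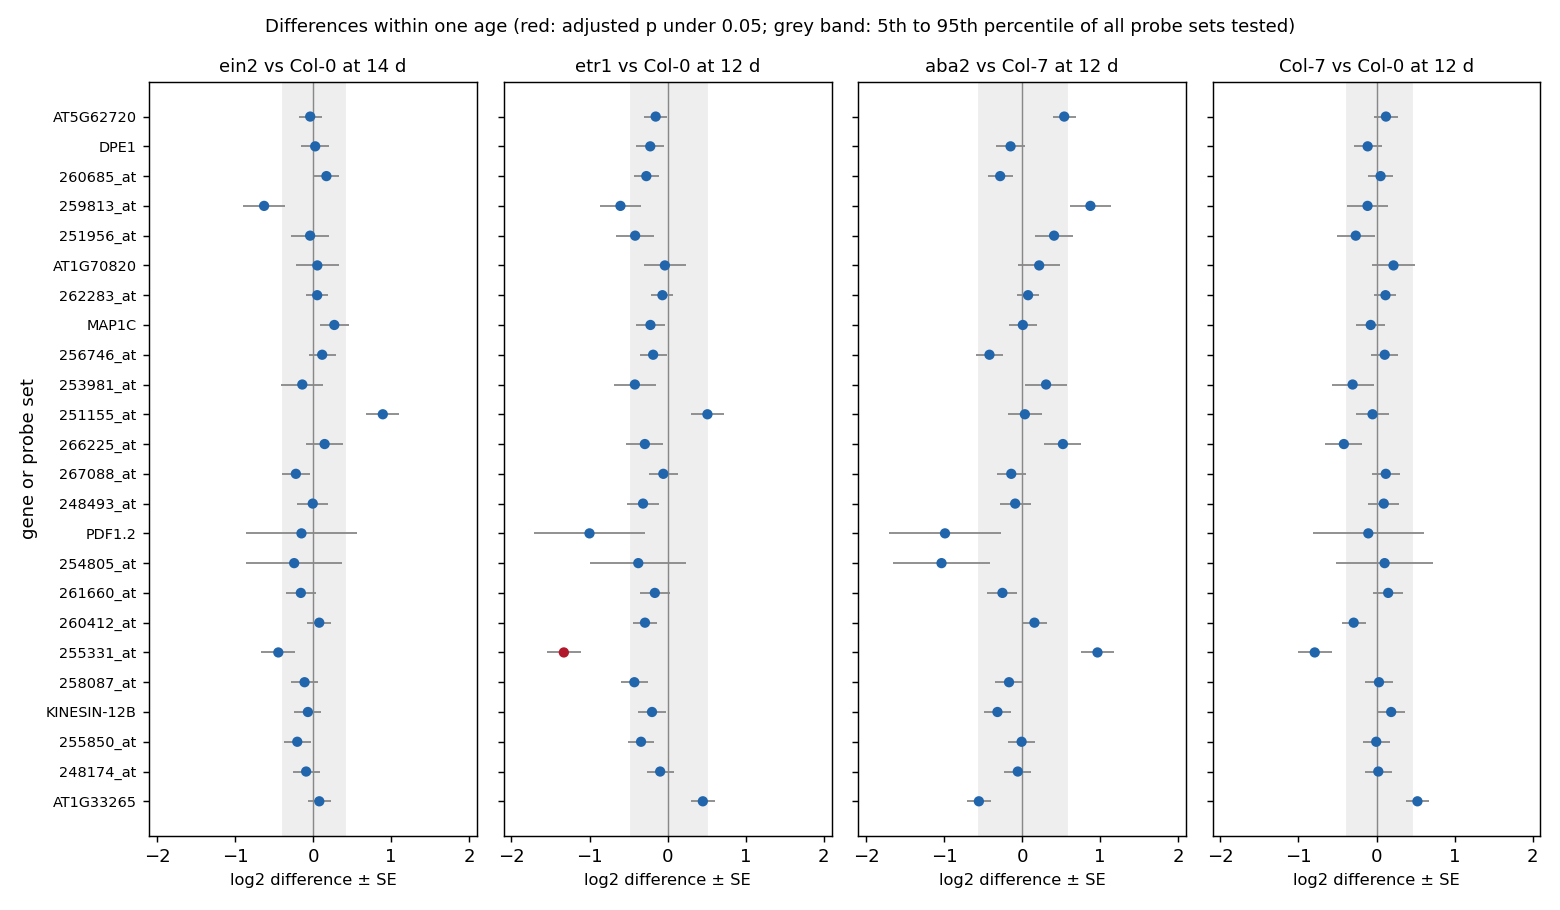
Log2 differences (signal + 50) of the 24 members within 1 age, against the wild type named above each panel (2 arrays each). Standard errors are from limma, with 1 spread per probe set shared by all 6 groups. Red marks an adjusted p under 0.05, and the grey band spans the 5th to the 95th percentile of all probe sets tested. Points below 0 are 22 of 24 for etr1 (47.7% of all probe sets tested), 14 for ein2 (51.1%) and 13 for aba2 (50.8%). The medians are -0.25, -0.04 and -0.03, and 0.03 for Col-7. These counts are not independent of the rule, and panels that share the Col-0 arrays of 12 d are not set against each other.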

How the data were processed

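Per the design text and the submitters' processing notes, the authors made the deposited signal intensity values with Affymetrix Microarray Suite 5.0 (MAS5). The values are linear and scaled to 1 trimmed mean. Detection calls were not used. All 12 columns were used, with 22810 probe sets less 64 controls. The naming table paired 13513 with 1 gene, 503 with several and 8730 with none.

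A fit of 6 group means to the 12 arrays was made in limma 3.58.1 (R 4.3.3) on log2(signal + 50) for the 13723 probe sets with a mean of at least 120. It used eBayes with trend, two-sided tests, 6 residual and 4.37 prior degrees of freedom, and Benjamini-Hochberg adjustment over all probe sets tested, with a threshold of 0.05. The 6 groups shared 1 spread per probe set, so a probe set has the same SE in each comparison of 2 groups. Replicates lay closer in Col-0 at 14 d (0.227) than in Col-0 at 12 d (0.605), which a shared spread does not show. With 2 arrays against 2, the smallest p of an exact permutation test is 0.333. The procedure was tested on simulated data.

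Members and lists were chosen with earlier results of these data known. The lists of relatives were chosen after the members were seen and before the relatives' values were read. The text names the members paired with a gene, members past the threshold within an age, the 3 on each side of the rule's threshold, and list genes past the test with age. Other members were named with their values already known. Replicate numbers were not taken as pairs, because the design text does not say which arrays form a set. Deviations of same-numbered arrays correlated at 0.340 for aba2 and Col-7, 0.486 for aba2 and Col-0 and 0.541 for Col-7 and Col-0 at 12 d. The other pairs of groups checked ran from -0.157 to -0.018. With the replicate number as a block, aba2 against Col-7 gave 75 calls and Col-7 against Col-0 gave 0, with 0 members in each.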

Additional observations from a re-analysis of the deposited data

How the results depend on the processing

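With 2 arrays a group, the number of arrays limits the precision. As reported, there were 24 members and 888 calls with age, 51 for ein2, 63 for etr1, 62 for aba2, 0 for Col-7 and 2 for the difference between ein2 and etr1. The rule gave 4 members with a factor of 2, 114 with a looser one and 15 with an offset of 150, and 24 to 35 when 1 array was left out. A fit of the compared arrays alone gave 124 calls with age, 4 of them members, 370 for ein2 with 1 member, 0 for etr1 with 0 members, 7 for aba2 and 0 for the difference between ein2 and etr1. The rule used the same Col-0 arrays, so nothing is read from the numbers of members called with age, here and below. The etr1 comparison called 0 members with an offset of 10 and without the filter. It also called 0 with a filter at the 60th percentile, where 255331_at was not among the probe sets tested. The aba2 calls were 41 with that filter and 221 against Col-0. The difference between the ethylene mutants gave 1 call with an offset of 150. With the replicate number as a block it gave 1 call, 255331_at kept its call in etr1 (adjusted p = 0.0372), and PDF1.2b passed with age (0.0131). For age the block gave 948 calls (23 members) and, with the numbers crossed, an alternative chosen after seeing the data, 1001 (23 members). Applying the alternatives to single genes and to the lean of the members in etr1 was also chosen after seeing the data.

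Leaving out 1 array, calls with age were 144 to 1464 and members called 11 to 23, with 144 and 325 calls (11 and 12 members) without Col-0 replicates 1 and 2 of 14 d, and 1213 and 1464 without those of 12 d. For ein2 there were 12 to 17 calls and 0 members. For etr1 there were 6 to 417 calls and 0 to 2 members, with 9 and 6 calls without the etr1 replicates 1 and 2, and 417 and 104 without those of Col-0. For aba2 there were 4 to 58 calls, with 4 without either aba2 array. For Col-7 there were 0 to 455 calls and 0 to 3 members, the highest without Col-0 replicate 1, and for the difference between the ethylene mutants 0 to 12 calls. The aba2 difference of PDF1.2 ran from -2.01 to 0.040, above 0 without aba2 replicate 1, and its ein2 difference from -0.62 to 0.32, at 0.091 without ein2 replicate 2 and 0.32 without Col-0 replicate 2 of 14 d. The causes were not tested.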
